A study of Mus musculus with 6 samples.

Results

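Transcripts of calcium/calmodulin-dependent kinases were measured in cultured mouse brain neurons that had received an adeno-associated virus (AAV), a vector that delivers a gene to neurons. The 10 genes described are Camk4, Camk1, Camk1d, Camkk1, Camkk2, Camk2a, Camk2b, Camk2d, Camk2g and Camkv. They are 10 of the 55416 genes in the deposited table, and all 10 were found by symbol and passed the filter on low values. The family was chosen by the level of Camk4, whose difference between these 2 groups of libraries was already known, so the differences of the 10 genes between the groups are a description and carry no test.

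All libraries came from wild-type (WT) brain neurons. For 3 libraries the vector encoded miR-9-3p under the synapsin promoter (hsyn), which is active in neurons, and 3 control libraries received a vector that the titles and treatment labels call scramble and the extraction protocol calls AAV-hsyn-mCherry. The labels do not give the age of the animals or the time after infection, nor do they mark any of the libraries as a separate culture, so the spread between them may be technical. Values are FPKM, fragments per length of exon after scaling between libraries, and reads recovered from them summed to between 16063214 and 17495210 per library. Where 3 values of a group are given, they are those of libraries 1, 2 and 3 in that order.

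In neurons, calcium that enters through channels and receptors binds calmodulin, and calcium-loaded calmodulin opens the catalytic site of these kinases. CaMKK1 and CaMKK2 phosphorylate and raise the activity of CaMKI and CaMKIV, and CaMKIV acts in the nucleus on the transcription factor CREB and its co-activators. CaMKII assembles from the products of Camk2a, Camk2b, Camk2d and Camk2g into a ring-shaped holoenzyme that is abundant at synapses and is known for its part in synaptic plasticity.

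The microRNA that the virus carried and its partner strand from the same hairpin are shown first, because the seed is the part of a microRNA that chiefly selects its targets. The seed, bases 2 to 8, is in capitals, and both sequences are the RefSeq entries for GRCm38.p6.
miR-9-3p: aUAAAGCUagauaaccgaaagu
miR-9-5p: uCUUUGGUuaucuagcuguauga
The same 2 mature sequences are annotated at Mir9-1 on chromosome 3, Mir9-2 on chromosome 13 and Mir9-3 on chromosome 7. Matches were sought on the transcript strand of the longest annotated 3′ untranslated region (UTR) of each gene. The letters searched for miR-9-3p were AGCTTTA or GCTTTAA, which share 6 bases and were counted once where they overlap, and ACCAAAG or CCAAAGA for miR-9-5p.

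Camk4 held no miR-9-3p match in an annotated UTR of 1069 bases, and none for miR-9-5p. Of the 10 genes, 3 held a miR-9-3p match: Camk2a with 2 in 3372 bases, Camk1d with 1 in 5526 bases and Camkv with 1 in 1351 bases. Over the 12193 tested coding genes with such a region the share with a match was 20.5% for miR-9-3p and 23.4% for miR-9-5p, at a median length of 1255 bases. Camk1d alone among the 10 held miR-9-5p matches, 2 of them. None of the 10 held an 8-base match of either strand, against 4.84% and 4.58% of these coding genes. The matches in Camk1d and Camkv are shown 5′ to 3′, with the matching bases in capitals, as examples of both miR-9-3p patterns and, in Camk1d, of matches to both strands in 1 transcript.
Camk1d, miR-9-3p match: atggattttagAGCTTTAggctac
Camkv, miR-9-3p match: ctagggcagtgtGCTTTAAgtcaa
Camk1d, miR-9-5p match, first: tcagaactgtgACCAAAGctgact
Camk1d, miR-9-5p match, second: ggtgagaagacACCAAAGgtatat
These are matches of letters in the annotation, not measured binding sites.

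Markers of lung cells were present in all of these neuron libraries, and control library 3 stood apart from the rest. The lung level, the median of 10 markers of alveolar type 2 cells, was 2.07, 2.64 and 8.18 times that of the lowest library in control libraries 1, 2 and 3 and 2.61, 1.09 and 1 times in miR-9-3p libraries 1, 2 and 3. The 10 neuron markers summed to 1348, 1141 and 822 FPKM under the control vector against 1180, 1454 and 1488 FPKM under miR-9-3p AAV, and all 10 were detected. Tubb3 made up much of these sums, at 707, 539 and 338 against 527, 786 and 823 FPKM. The single markers did not move alike. In control library 3, Tubb3 stood at 0.542 times the mean of control libraries 1 and 2. Map2 stood at 1.08 times and was the only neuron marker above that mean. Of the 10, limma called 1 higher, Map2 (limma adjusted p = 0.0374), and 0 lower. In bulk RNA, fewer neurons and less RNA per neuron cannot be told apart. Markers of glutamatergic neurons summed to between 80.6 and 132 FPKM in control AAV and between 121 and 140 FPKM in miR-9-3p AAV, and those of GABAergic neurons to between 194 and 249 FPKM and between 195 and 230 FPKM. Airway markers summed to between 3717 and 17570 FPKM in control AAV and between 1158 and 5252 FPKM in miR-9-3p AAV. The part of this lung RNA in the kinase values was not tested beyond the fits given below.

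Camk4 (ENSMUSG00000038128; chromosome 18, 32934931 to 33191228, plus strand, GRCm38), the nuclear kinase upstream of CREB, had the largest ratio between the vectors among the 10 genes. It measured 5.83, 5.77 and 6.05 FPKM under the control vector against 15.4, 13.9 and 14.5 FPKM under miR-9-3p AAV. Every miR-9-3p library lay above every control library, and the control libraries differed among themselves by little. The means were 5.88 ± 0.151 and 14.6 ± 0.772 FPKM (SD, n = 3), a ratio of 2.48. On the scale log2(FPKM + 1) the fold change was 1.18 with a standard error (SE) of 0.08, and it was the 55th highest of 14229 tested genes. The reads behind these values were 304, 337 and 350 in the control libraries and 862, 766 and 802 in the miR-9-3p libraries. The antisense gene 2310026I22Rik shares 72 exon bases with Camk4 and held between 0 and 5 reads in a library.

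**Figure D1:**
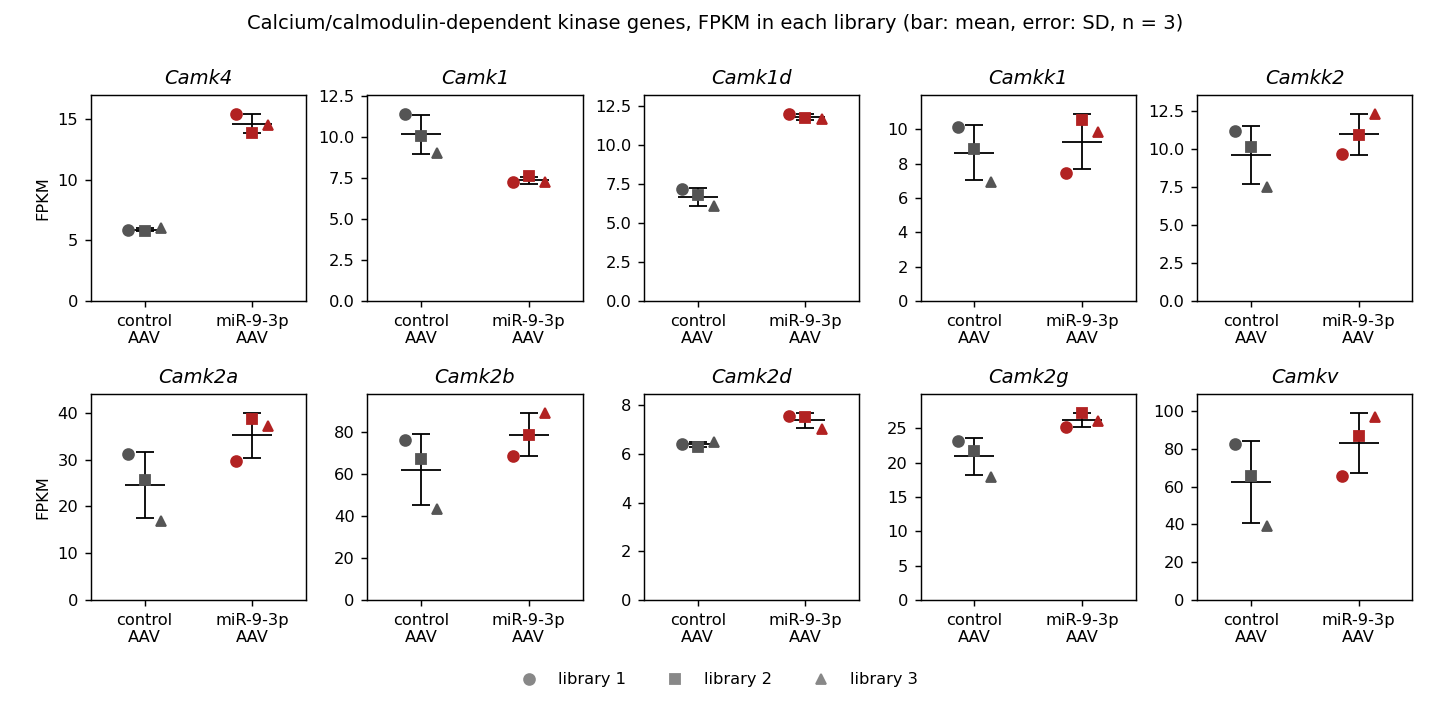
FPKM of the 10 kinase genes in each of the 6 libraries. Each panel is 1 gene with a linear axis from 0, grey points are control AAV and red points miR-9-3p AAV libraries, the marker shape gives the library number, the bar is the mean and the error bar the SD (n = 3). Camk4, Camk1d, Camk2g and Camk2d lie higher in every miR-9-3p library than in any control library and Camk1 lies lower, while Camk2a, Camk2b, Camkv and both Camkk genes overlap.

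Camk1d and Camk1 encode isoforms of CaMKI, a cytosolic kinase that CaMKK switches on and that is known in neurons for roles in axon and dendrite growth. Camk1d (ENSMUSG00000039145; chromosome 2, 5293457 to 5714515, minus strand) measured 7.19, 6.82 and 6.07 FPKM under the control vector against 12, 11.7 and 11.6 FPKM under miR-9-3p AAV. The groups did not overlap, and the log2 fold change was 0.74 (SE 0.09). Camk1 (ENSMUSG00000030272; chromosome 6, 113334124 to 113343984, minus strand) measured 11.4, 10.1 and 9.02 FPKM under the control vector against 7.25, 7.62 and 7.25 FPKM under miR-9-3p AAV. It was the only one of the 10 genes with every miR-9-3p library below every control library, at a log2 fold change of -0.41 (SE 0.10). Camk1 shares 232 exon bases with Ogg1, a DNA repair gene on the other strand. Without the strand setting, which is not given in the sources used here, reads there cannot be assigned. Ogg1 measured 3.92, 3.95 and 3.81 against 2.53, 3.53 and 2.70 FPKM, and so also lay lower in every miR-9-3p library (log2 fold change -0.33, limma adjusted p = 0.141). It held between 95 and 155 reads in a library and Camk1 between 735 and 1094, and the part of the shared bases in the Camk1 values was not tested.

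The activating kinases overlapped between the groups. Camkk1 (ENSMUSG00000020785; chromosome 11, 73019008 to 73042073, plus strand) measured 10.1, 8.87 and 6.95 FPKM under the control vector against 7.45, 10.5 and 9.87 FPKM under miR-9-3p AAV (log2 fold change 0.09, SE 0.17). Camkk2 (ENSMUSG00000029471; chromosome 5, 122731170 to 122779409, minus strand), which also phosphorylates the energy sensor AMPK, measured 11.2, 10.1 and 7.51 against 9.63, 10.9 and 12.3 FPKM (0.18, SE 0.16). For both genes control library 3 was the lowest of all 6. Camkk1 made up 47.4 ± 0.69% of the summed FPKM of this pair in control AAV and 45.7 ± 2.91% in miR-9-3p AAV (SD, n = 3). Such shares depend on the merged exon lengths, 3728 and 10921 bases here, and by reads Camkk1 made up 23.5 ± 0.498% and 22.4 ± 2.07%.

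Among the CaMKII genes, Camk2b (ENSMUSG00000057897; chromosome 11, 5969644 to 6066362), the beta subunit that binds actin, had the highest levels. It measured 75.9, 67.0 and 43.1 FPKM under the control vector against 68.5, 78.1 and 88.8 FPKM under miR-9-3p AAV, so the groups overlapped (log2 fold change 0.37, SE 0.22). Camk2a (ENSMUSG00000024617; chromosome 18, 60925618 to 60988152), the alpha subunit typical of mature excitatory neurons, measured 31.1, 25.6 and 17.0 against 29.6, 38.6 and 37.1 FPKM. Control library 1 lay above miR-9-3p library 1, and the log2 fold change was 0.53 (SE 0.23). Camk2g (ENSMUSG00000021820; chromosome 14, 20734875 to 20794088), the gamma subunit gene, measured 23.1, 21.7 and 17.9 against 25.2, 27.2 and 26.0 FPKM, with no overlap and a log2 fold change of 0.32 (SE 0.11). The delta subunit gene Camk2d (ENSMUSG00000053819; chromosome 3, 126596302 to 126846326) measured 6.38, 6.27 and 6.50 against 7.56, 7.52 and 7.01 FPKM, also with no overlap, at the small log2 fold change of 0.18 (SE 0.07). Camk2d has the longest exon model of the 10, 22493 bases, and its fold change was -0.15 with each library's trend on exon length removed and -0.02 with the neuron marker level subtracted.

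Camkv (ENSMUSG00000032936; chromosome 9, 107935674 to 107949691) encodes a protein related to CaMKI that binds calmodulin but is regarded as a pseudokinase. Its level range overlapped that of Camk2b, and it measured 82.3, 65.5 and 39.3 FPKM under the control vector against 65.5, 86.4 and 96.8 FPKM under miR-9-3p AAV. The groups overlapped, and the SE of 0.29 was large beside the log2 fold change of 0.45.

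By the fit over all 14229 tested genes, which calls a gene at a limma Benjamini-Hochberg adjusted p under 0.05, 2 of the 10 genes, Camk4 and Camk1d, were called higher and 0 lower. Over all tested genes 3.89% were called higher and 2.4% lower, and since the family was chosen on this contrast nothing is read from the count. At an unadjusted p under 0.05 the counts were 3 and 1 of the 10, beside 1996 and 1824 of all 14229 tested genes. Voom on the recovered reads called 2 and 0 of the 10, beside 685 and 401 over the whole table. The limma calls of Camk4 and Camk1d ended without control library 1 or 2 or any 1 of the miR-9-3p libraries. In those fits limma called 0 genes in the whole table. Both calls were kept without control library 3. The groups did not overlap in 5 of the 10, 4 higher and 1 lower, against 34.9% of all tested genes (18.2% higher and 16.7% lower). The median log2 fold change of the 10 was 0.34, beside -0.02 over all tested genes, and it was -0.006 with lung level in the model and 0.17 without control library 3.

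Control library 3, which had the most lung RNA and the lowest neuron marker sum, held the lowest value of 8 of the kinase genes within its group. Relative to the mean of control libraries 1 and 2 it held 0.531 times the Camkv level, 0.599 times Camk2a, 0.604 times Camk2b, 0.706 times Camkk2 and 0.733 times Camkk1. Camk2g stood at 0.800, Camk1 at 0.838 and Camk1d at 0.866 of that mean. Camk2d (1.03) and Camk4 (1.04) stood at the level of the other control libraries. The genes with a wide spread among controls were thus those with the lower level in this library. The kinase genes also differed in GC content, the share of G and C bases. It was 58.1% for Camkv, 53.3% for Camk2a, 53.9% for Camk2b, 53.1% for Camkk2 and 55.2% for Camkk1. Camk2g had 51.8%, Camk1 50.4%, Camk1d 46.9%, Camk2d 43.9% and Camk4 48.2%. The parts of GC content, lung RNA and neuron RNA in the levels of this library were not tested.

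The libraries also fell into 2 sets by Bpifa1, an airway gene that stood at between 0.939% and 0.966% of the airway gene Scgb1a1 in control libraries 2 and 3 and miR-9-3p library 1 and at no more than 0.0293% in the other 3 libraries. Within these sets the log2 differences of Camk4 were 1.25 and 1.15, those of Camk1d 0.81 and 0.63 and those of Camk1 -0.35 and -0.56. Camk2a had 0.48 and 0.28, Camk2b 0.34 and 0.13 and Camkv 0.36 and 0.15. With lung level in the model Camk4 had a log2 fold change of 1.24, Camk1d 0.66 and Camk1 -0.54, while Camk2a had 0.07, Camk2b -0.08, Camkv -0.15, Camkk1 -0.24 and Camkk2 -0.12. Without control library 3 alone, Camk2a had 0.30, Camk2b 0.13 and Camkv 0.16. Of the 21 alternatives run, the sign of Camk2b and Camkv changed in 1, lung level in the model, and that of Camk2d and Camkk2 in 2. Camkk1 changed sign in 4, among them the fit without control library 3 (-0.04). The sign of Camk4, Camk1d, Camk1, Camk2a and Camk2g was the same in all 21.

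**Figure D2:**
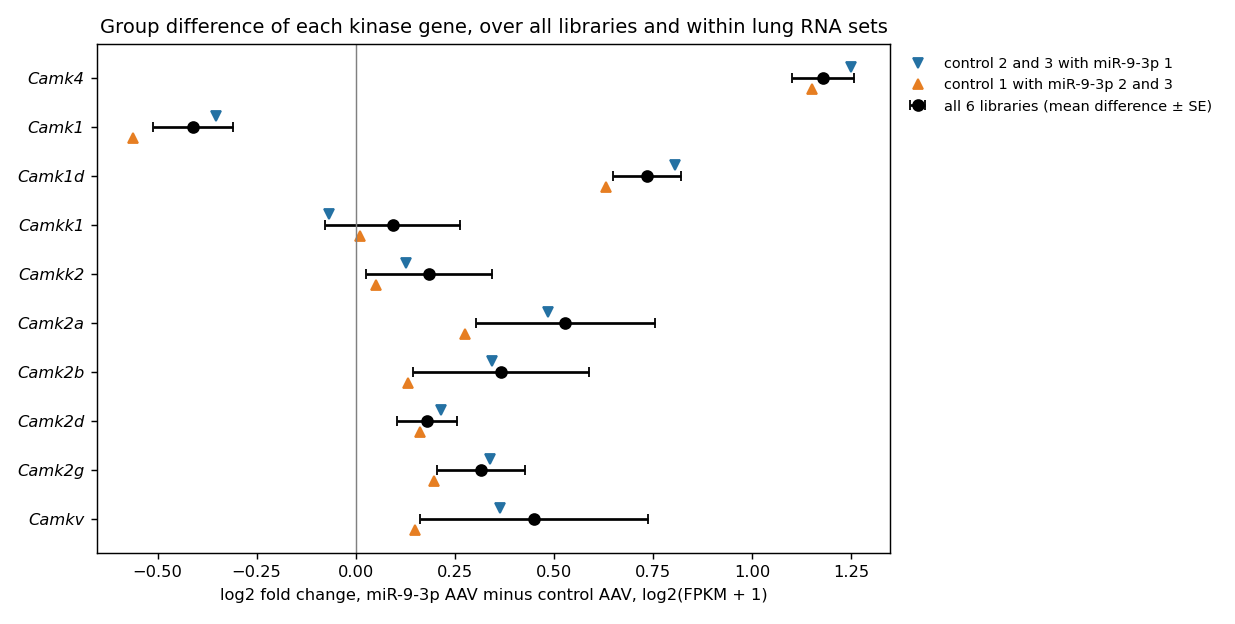
Log2 fold change of each kinase gene, miR-9-3p AAV minus control AAV, on the scale log2(FPKM + 1). Black points are the difference over all 6 libraries with its SE, blue triangles the difference within the set with Bpifa1 (control 2 and 3, miR-9-3p 1) and orange triangles within the set without it (control 1, miR-9-3p 2 and 3). Camk4 lies near 1.18 in all 3 estimates and Camk1 lies below 0 in all 3, whereas Camk2a, Camk2b and Camkv are smaller within both sets than over all libraries.

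T lymphocytes also express Camk4, so their markers were examined. The 9 markers summed to between 2.84 and 5.98 FPKM in control AAV and between 1.62 and 2.69 FPKM in miR-9-3p AAV, and the T cell receptor gene Cd3d was at most 0.559 FPKM. The kinase gene Lck made up much of these sums, at 2.56, 1.81 and 1.79 against 1.47, 1.71 and 1.39 FPKM, and was the 1 of the 9 that passed the filter (limma adjusted p = 0.261). The part of T lymphocytes in the Camk4 values was not tested. Of the 9 astrocyte markers 0 were called higher and 1 lower, and they summed to between 423 and 490.5 FPKM in control AAV and between 317 and 344 FPKM in miR-9-3p AAV. That gene was Gfap (log2 fold change -1.55, limma adjusted p = 0.017). The part of this glial difference in the kinase values was not tested.

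**Figure D3:**
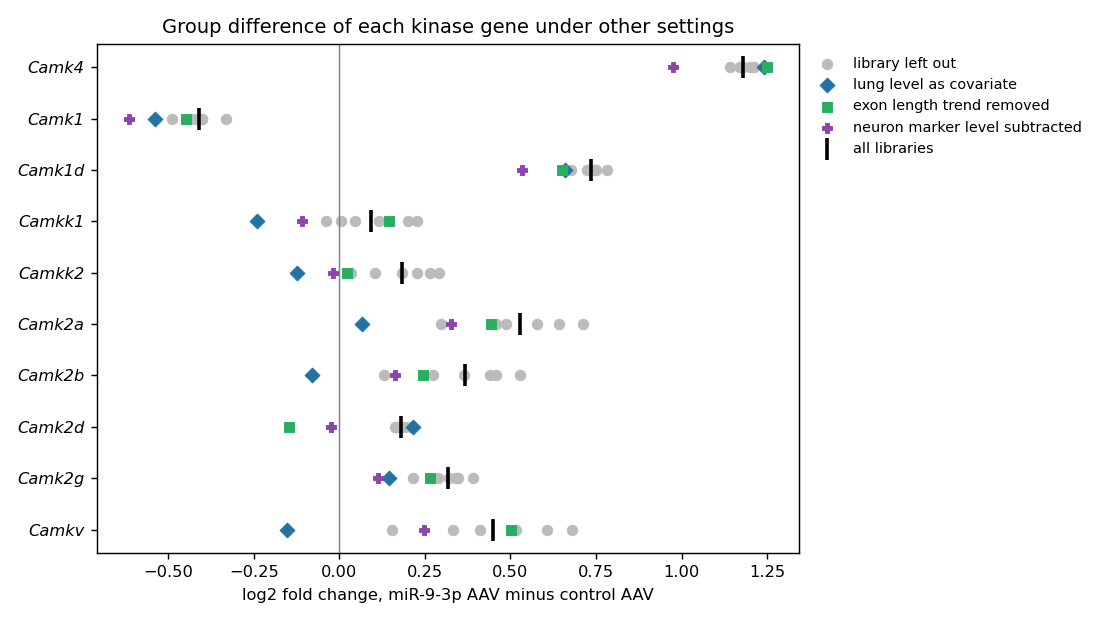
Log2 fold change of each kinase gene under other settings. The black bar is the value over all libraries, grey points leave out 1 library each, and the coloured markers are the fits with lung level in the model, the exon length trend removed or the neuron marker level subtracted. Camk4 stays between 0.976 and 1.31 over the 21 alternatives run, and Camkv ranges from -0.15 to 0.68.

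The levels within the family were set side by side as FPKM, which is per length. The order depends on the merged exon lengths, from 3259 bases for Camk4 to 22493 bases for Camk2d. In control AAV the order was Camkv, Camk2b, Camk2a, Camk2g, Camk1, Camkk2, Camkk1, Camk1d, Camk2d and Camk4, from a mean of 62.3 FPKM for Camkv to 5.88 FPKM for Camk4. The control ranges of Camkv and Camk2b overlapped, as did those of Camk2a and Camk2g, of Camk1 and Camkk2, of Camkk2 and Camkk1, of Camkk1 and Camk1d, and of Camk1d and Camk2d. Camk2b lay above Camk2a, and Camk2g above Camk1, in all 6 libraries. By FPKM, Camk4 was the lowest of the family in every control library and stood above Camk1, Camk1d, Camk2d, Camkk1 and Camkk2 in every miR-9-3p library. By reads, which are not divided by length, that order differed. In miR-9-3p library 1 Camk4 held 862 reads, against 1531 for Camk1d, 1807 for Camkk2 and 2921 for Camk2d. Camk1 held 744 and Camkk1 477 reads there.

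Because the CaMKII genes build 1 holoenzyme, their shares of the summed CaMKII FPKM were compared within libraries. Camk2a held 22.8%, 21.3% and 20.1% in the control libraries and 22.6%, 25.5% and 23.3% in the miR-9-3p libraries. Camk2b held 54.1 ± 2.63% and 53.3 ± 2.29%, Camk2g 18.7 ± 2.23% and 17.9 ± 1.45% and Camk2d 5.85 ± 1.61% and 5.05 ± 0.687% (SD, n = 3). By reads, which are not divided by length, the mean share of Camk2d was 14.5% and 12.7%. Each of these 4 FPKM shares overlapped between the groups, while the sum itself ran from 84.6 FPKM in control library 3 to 159 FPKM in miR-9-3p library 3.

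Among the genes for kinases that CaMKK switches on, the make-up differed. Camk1g and Pnck, the other CaMKI isoform genes, were added to Camk4, Camk1 and Camk1d after their values were seen. Camk4 held 7.39%, 8.37% and 12.3% of the summed FPKM of these 5 genes in the control libraries and 22.9%, 18.7% and 18.8% in the miR-9-3p libraries. Camk1d held 9.12%, 9.90% and 12.3% and then 17.9%, 15.8% and 15.1%. Both shares were higher in every miR-9-3p library than in any control library. Camk1 held 15.8 ± 2.15% in control AAV and 10.1 ± 0.71% in miR-9-3p AAV, Camk1g 21.5 ± 1.27% and 17.0 ± 1.12%, and Pnck 42.9 ± 6.17% and 36.4 ± 3.69% (SD, n = 3). Shares add up to the whole, so a larger share of 1 gene lowers those of the others. The FPKM of Camk1g and Pnck overlapped between the groups. Their log2 fold changes were -0.15 (limma adjusted p = 0.627) and -0.06 (limma adjusted p = 0.92). The summed FPKM overlapped, from 49.3 to 78.9 in control AAV and from 67.2 to 77.3 in miR-9-3p AAV.

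**Figure D4:**
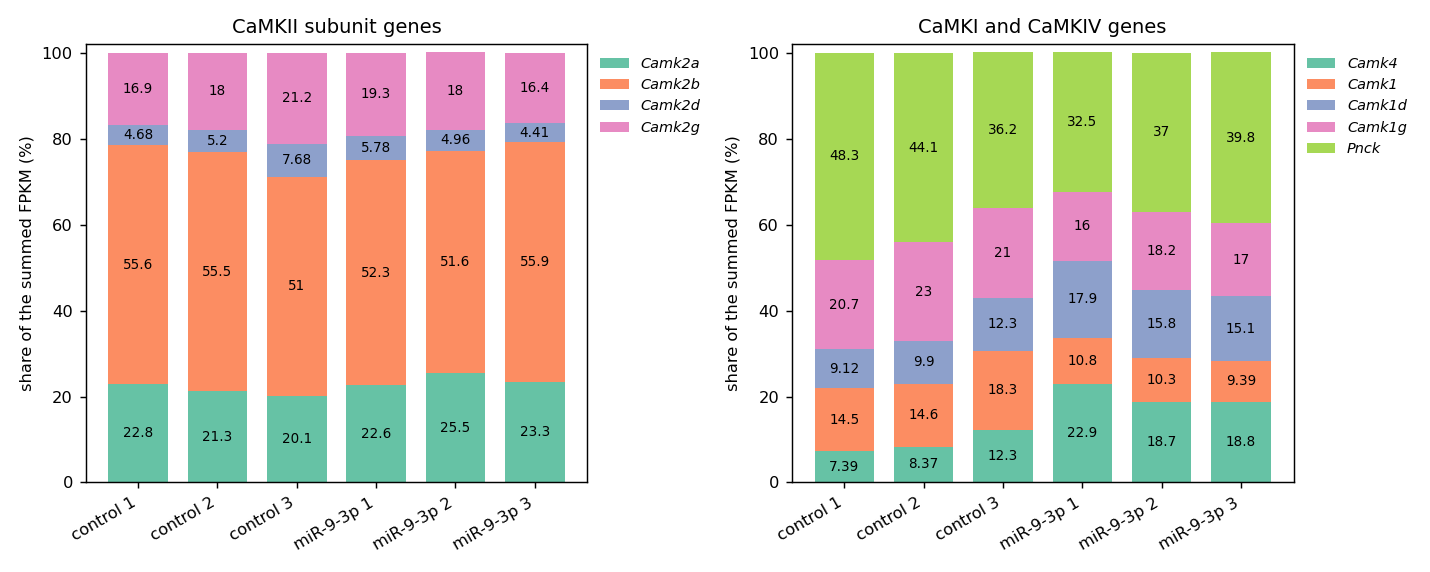
Share of each gene in the summed FPKM of its kinase group, by library, as stacked bars that each add up to the whole. The left panel shows the CaMKII genes and the right panel the CaMKI and CaMKIV genes, with the percentage written in each segment. Camk4 takes 7.39% to 12.3% of the right group in control and 18.7% to 22.9% in miR-9-3p libraries, while the CaMKII shares overlap.

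The 5 coding genes outside the family whose levels were most like that of Camk4 over the 6 libraries were Kcnq3, a potassium channel gene (Pearson r 0.997), Slc9a7, a sodium/proton exchanger gene (0.997), Znrf2, a ubiquitin ligase gene (0.997), Cadm1, a cell adhesion gene (0.996), and Adamts3, a protease gene (0.995). Kcnq3 measured 4.70, 4.72 and 4.61 FPKM under the control vector against 10.2, 8.77 and 9.24 FPKM under miR-9-3p AAV. The 6 points are 2 groups of 3, so a high r chiefly reflects that a gene separates the groups with little spread within them, and 42 of 10825 genes compared had an r over 0.99.

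The genes around the kinases were taken from 8 lists by role, with 113 tested genes outside the family. Of these 11 were called higher and 2 lower in limma, beside 3.89% and 2.4% of all tested genes. The median log2 fold change of the 113 was 0.01, beside -0.02 over all tested genes. Of 11 other CaM-regulated and CAMK-family kinases, 2 were higher and 0 lower (median -0.02). Dclk1, a doublecortin-like kinase of growing neurons, rose by 0.55 on the log2 scale, from 43.9 ± 2.53 to 64.9 ± 1.25 FPKM (SD, n = 3, limma adjusted p = 0.0264). Cask, a synaptic scaffold with a CaMK-like domain, rose from 18.8 ± 0.927 to 25.1 ± 1.09 FPKM (0.40, limma adjusted p = 0.0438).

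Calmodulin itself and the proteins listed as sequestering it gave no call. Of 10 such genes 0 were called higher or lower by limma or by voom (median 0.08). At an unadjusted p under 0.05, 0 of them were higher and 1 lower, beside 1996 and 1824 of all 14229 tested genes. Pcp4l1 had a log2 fold change of -0.54 (limma adjusted p = 0.0699). Of 11 inhibitors and phosphatases 1 was higher and 0 lower (median -0.06). That gene was Ppm1e, the nuclear phosphatase that switches CaM kinases off, which rose from 35.4 ± 3.24 to 51.4 ± 4.11 FPKM (0.53, limma adjusted p = 0.0427). Of 9 genes of calcineurin, the calcium-dependent phosphatase, and its regulators, 0 were called by limma or voom (median 0.03). Among them 2 were higher and 1 lower at an unadjusted p under 0.05. The catalytic subunit gene Ppp3ca had a log2 fold change of 0.32 (limma adjusted p = 0.0614) and Rcan3, a calcineurin regulator, 0.34 (limma adjusted p = 0.178).

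CaMKII anchors and synaptic substrates, the longest of these lists, held the most calls, 5 higher and 0 lower of 22 (median 0.20). Over all tested genes 3.89% were called higher and 2.4% lower. Grin2b, the NMDA receptor subunit that docks CaMKII, measured 13.6, 15.5 and 14.1 FPKM under the control vector against 30.8, 24.6 and 25.7 FPKM under miR-9-3p AAV (limma adjusted p = 0.0212). Lrrc7, the CaMKII-binding scaffold densin, rose from 5.37 ± 0.512 to 9.04 ± 1.11 FPKM (limma adjusted p = 0.033). Gria1, an AMPA receptor subunit that CaMKII phosphorylates, rose by 0.59 on the log2 scale (limma adjusted p = 0.0407) and Kalrn, a guanine nucleotide exchange factor of dendritic spines, by 0.49 (limma adjusted p = 0.0264). With lung level in the model the median of this list was 0.03. In that fit 5 were higher and 2 lower, beside 1700 and 2174 of all 14229 tested genes. Without control library 3 the median was 0.09.

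Downstream in the nucleus, 1 of 17 CaMKIV and CaMKI effector genes was higher and 1 lower (median 0.02). Mef2c, a transcription factor regulated by CaM kinases through histone deacetylases, rose from 16.9 ± 0.344 to 26.8 ± 1.97 FPKM (log2 fold change 0.63, limma adjusted p = 0.0223). Crem, a CREB-family gene whose short forms repress CREB targets, fell from 3.60 ± 0.432 to 1.84 ± 0.41 FPKM (-0.70, limma adjusted p = 0.0419). Of 20 activity-induced CREB target genes 0 were called by limma. At an unadjusted p under 0.05, 1 was higher and 6 lower, beside 1996 and 1824 of all 14229 tested genes. By voom 0 of the 20 were higher and 2 lower, beside 685 and 401 over the whole table. The median of this list was -0.44, and 10 of the 20 lay lower in every miR-9-3p library, against 16.7% of all tested genes. Control library 3 lay above the mean of the other control libraries for 15 of the 20, by 3.39 times for the stress gene Gadd45b, 3.01 times for the phosphatase gene Dusp1 and 2.48 times for Fos, 3 genes chosen after their values were seen. Without control library 3 the median of the list was -0.37 and 2 were called lower, beside 287 of all 14229 tested genes. Nr4a1, an orphan nuclear receptor, measured 9.23, 9.20 and 14.6 FPKM under the control vector against 5.13, 5.88 and 6.17 FPKM under miR-9-3p AAV (limma adjusted p = 0.0539). Bdnf, the neurotrophin gene, measured 3.03, 4.13 and 4.08 against 2.42, 2.03 and 1.68 FPKM (limma adjusted p = 0.0553). With lung level in the model the median of this list was -0.18, beside -0.0448 over all tested genes. In that fit 1 was called higher and 5 lower, beside 1700 and 2174 of all 14229 tested genes.

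On the CaMKK2 and AMPK branch 2 of 13 genes were higher and 1 lower (median -0.00155). Prkab2, an AMPK beta subunit, rose from 5.61 ± 0.266 to 9.81 ± 0.726 FPKM (limma adjusted p = 0.0204), and Acaca, acetyl-CoA carboxylase, the classical AMPK substrate, by 0.34 on the log2 scale (limma adjusted p = 0.0472). Prkag1, an AMPK gamma subunit, fell from 7.04 ± 0.581 to 4.67 ± 0.108 FPKM (limma adjusted p = 0.0314). All 12 called genes named in these lists had groups that did not overlap, but few of their calls held with 1 library left out. Without control library 1 or 2 or miR-9-3p library 1, 2 or 3 none of the 12 passed, with limma adjusted p-values from 0.0641 to 0.184, and without control library 3, 8 of the 12 passed, Acaca, Cask, Ppm1e and Crem not. With the exon length trend removed 3 of the 12, Prkab2, Grin2b and Gria1, passed.

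**Figure D5:**
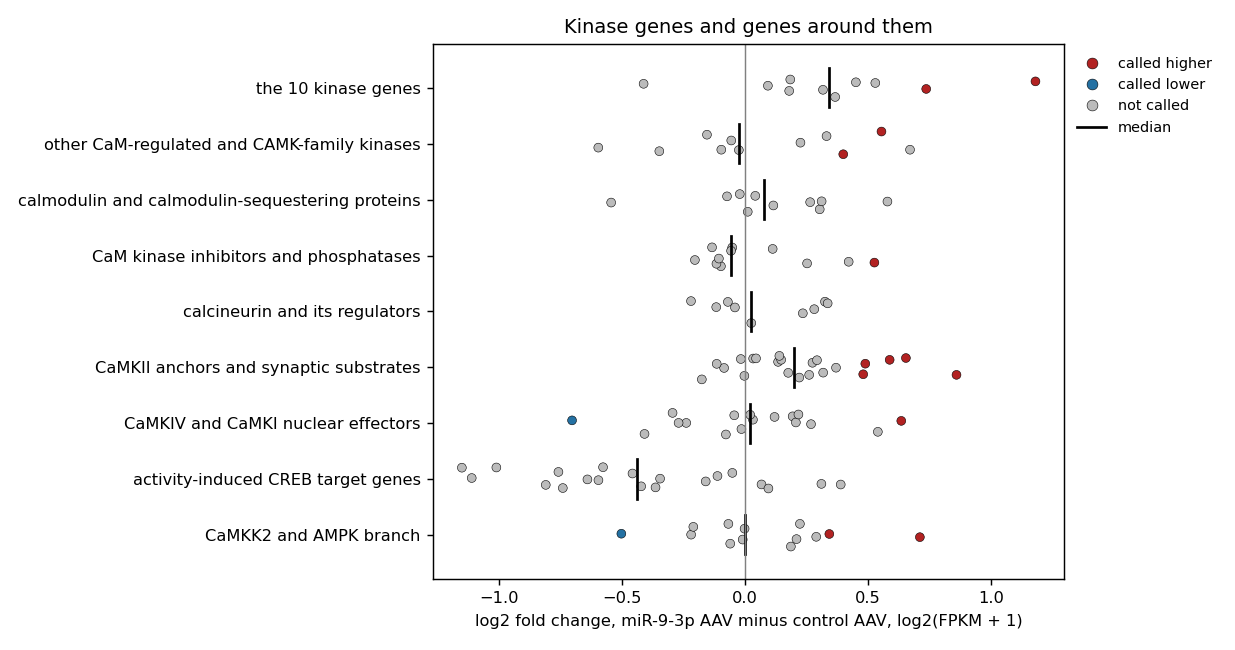
Log2 fold change, miR-9-3p AAV minus control AAV, of the 10 kinase genes and of the tested genes in the 8 lists around them. Each point is 1 gene, red or blue where limma called it higher or lower and grey where not, with vertical jitter for legibility, and the black line is the median of the list. The kinase genes have a median of 0.34 and the CREB target genes of -0.44, with the medians of the other lists between -0.06 and 0.20.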

How the data were processed

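The deposited table gives FPKM for 6 libraries, per the file headers. The submitters' processing notes name HISAT2, Cufflinks 2.2.1 and mm10, with no role or order. The strand setting, filters and the handling of reads shared by related genes are not given in the sources used here. Gene models of GENCODE M21 (GRCm38, which is mm10) gave symbols, coordinates and lengths, matching 52135 of 55416 identifiers. FPKM was multiplied by exon length and rescaled by a divisor recovered for each library from the most common product. This gave whole reads, within 0.01, for at least 98.05% of values above 0. The deposited FPKM had the same median ratio, 1.0074, to the geometric mean in all 6 libraries, so they were already scaled between libraries, and the recovered divisors are not depths.

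Values were tested on log2(FPKM + 1) with limma 3.58.1 in R 4.3.3 (intensity trend, no covariates) on the 14229 genes that reached 1 FPKM in 3 or more libraries. The call is a Benjamini-Hochberg adjusted p under 0.05 over all of them. The kinase genes and lists were chosen with earlier results of these data known. Named are all kinase genes and, in each list, up to 4 called genes by size of change, or 2 genes by p-value where 0 were called, and the 5 genes most correlated with Camk4. Cd3d, Lck, Bpifa1, Scgb1a1, Gfap, Tubb3, Map2, Ogg1, 2310026I22Rik, Camk1g and Pnck were named after their values were seen. A gene that the rule names is not reported here. The lung level is the median log2 deviation of alveolar type 2 markers. Alternatives were another pseudocount and filter, other scaling, voom on recovered reads, lung terms, length and GC trends removed, a replicate block and leaving out libraries. The pairs of libraries within a group differed by more than sampling noise.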

Additional observations from a re-analysis of the deposited data

How the results depend on the processing

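Calls depended on the libraries in the fit more than on scale or pseudocount. Over the fits that each leave out 1 library, genes called ran from 0 to 459 higher and from 0 to 287 lower, kinase genes from 0 to 2 higher and from 0 to 1 lower, and genes of the surrounding lists from 0 to 9 higher and from 0 to 3 lower. Where 0 genes were called, between 2739 and 3654 had an unadjusted p under 0.05. The deviations of same-numbered libraries from their group means had Pearson r of -0.649, 0.111 and -0.535, and not every library correlated best with its own number. Control library 3 and miR-9-3p library 1, each the highest of its group in lung level, had r of 0.621. Since lung level differed within the groups, these correlations cannot decide whether the title numbers pair the libraries. With the replicate block, counts were 0 and 0 for all genes, for the kinase genes and for the lists, with 2213 genes at an unadjusted p under 0.05.

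Counts higher and lower over all genes were 145 and 90 with no filter, 1700 and 2174 with lung level in the model, 1410 and 1243 with a term for the lung set, 280 and 211 with the exon length trend removed, and 1289 and 1054 with the GC trend removed. Without the library highest in lung RNA per group 853 were lower. After subtraction of the neuron marker level, chosen after seeing the data, they were 24 and 212. That step moved the median of all genes from -0.0189 to -0.222, with Camk4 at 0.976.

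Of the kinase genes, 1 was called higher with the neuron level subtracted. Camk1 was called lower, so that 1 was lower, with that step, either lung term, the GC trend removed, without those libraries, or without control library 3 alone. In the lists, the counts were 5 and 0 with no filter, 19 and 21 with the lung covariate, 4 and 1 with the length trend removed, 17 and 7 with the GC trend removed, and 0 and 1 with the neuron level subtracted. Lower counts were 9 with the lung set term, 10 without the highest lung libraries, 4 with voom and 1 with library total scaling, chosen after seeing the data. The Camk4 log2 fold change was 1.30 at a pseudocount of 0.1, 1.31 with voom, 1.24 with the lung covariate and 1.25 with the length trend removed. It ran from 1.14 to 1.21 with 1 library left out. No kinase gene had an 8-base match, 0 for either strand. Median-of-ratios scaling changed no count of these, as the deposited values already had equal ratios; the causes of the other differences were not tested.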

Other observations

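Among calmodulin and CaMKII inhibitor genes, which were chosen after their values were seen, levels varied widely within groups for Calm3 and Camk2n2. Calm2 measured 513, 509 and 452 FPKM under the control vector against 520.5, 482 and 482 FPKM under miR-9-3p AAV, and Calm3 613, 476 and 325 against 387, 533 and 585 FPKM. Camk2n2, an inhibitor protein of CaMKII, measured 87.6, 61.4 and 42.1 against 40.5, 80.6 and 88.0 FPKM, so the lowest and the highest value of both groups together fell within miR-9-3p AAV. Its paralog Camk2n1 measured 34.2, 28.9 and 26.4 against 34.1, 40.4 and 46.6 FPKM, with a log2 fold change of 0.42 (limma adjusted p = 0.136).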
